A study of Mus musculus with 50 samples.

Results

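The genes described here are the nuclear genes that encode the subunits of the oxidative phosphorylation machinery in mouse embryonic stem cells. They were chosen by name, from rows whose RefSeq identifier maps to a symbol starting with Ndufa, Ndufb, Ndufc, Ndufs, Ndufv, Sdha to Sdhd, Uqcr, Cyc1, Cox4 to Cox8 or Atp5. Assembly factors (Ndufaf and Sdhaf) and pseudogenes were left out, and identical rows were counted once. This gave 86 genes of the 19455 in the table: 36 of complex I, 4 of complex II, 9 of complex III, 18 of complex IV, the pair Ndufa4 and Ndufa4l2, which carry complex I names but were grouped beside complex IV, and 17 of the ATP synthase.

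The study measured mRNA by 3′ end sequencing of poly(A) RNA in KH2 embryonic stem cells, a line of C57BL/6 x 129/Sv background, kept in serum with LIF. The tested genotypes were Ythdf1_KO, Ythdf2_KO and Ythdf3_KO, each lacking 1 of the 3 cytoplasmic YTHDF proteins that bind N6-methyladenosine (m6A) in mRNA, and Triple_KO, lacking all 3. All were compared with WT cells of the same line. Every genotype was moved to gelatin 48 h ahead, given actinomycin D at 5 µM to stop transcription, and harvested after 0, 4 or 8 h. Replicates A and B of a genotype were sequenced as duplicate libraries at 0 h and 8 h and as single libraries at 4 h, giving 4, 2 and 4 libraries at the 3 times and 50 over the 5 genotypes. The labels do not say whether the replicates were separate cultures or how many clones stand behind a knockout, so that p-values measure the spread between these samples.

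Complex I (NADH dehydrogenase) and complex II (succinate dehydrogenase) pass electrons to ubiquinone, complex III passes them to cytochrome c and complex IV (cytochrome c oxidase) passes them to oxygen. Proton pumping by complexes I, III and IV drives the ATP synthase. Most subunits of these complexes are encoded in the nucleus, and their mRNAs are typically short, abundant and long-lived. The core of complex I holds the flavin and iron-sulphur centres that carry the electrons, and the remaining subunits, called accessory or supernumerary, surround it.

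Values were deposited in FPM, 3′ end reads per 1000000 reads of the library, with no division by transcript length. Libraries held 796921 to 2341410 reads, and 1 read was worth 0.427 to 1.25 FPM. Reads of the targeted genes remained in the knockouts: the 10 Ythdf1_KO libraries had 12.5 to 64.9 FPM of Ythdf1 and the 10 WT libraries 7.02 to 67.7 FPM, and Ythdf2 was at 37.5 to 97.3 FPM in Triple_KO and 5.06 to 58.6 FPM in WT. The edited part of each gene was not given in the sources used here, so that reads at the 3′ end check nothing about the labels. Of 10 stem cell markers, Nanog was at most 4.05 FPM in any library, and the 10 summed to 2458 to 2586 FPM in Triple_KO and 2914 to 3096 FPM in WT at 0 h. Of 15 fibroblast feeder markers, the sums at 0 h were 589 to 669 FPM in Ythdf1_KO, 429.8 to 460.1 FPM in Ythdf2_KO, 455 to 469 FPM in Ythdf3_KO, 629.5 to 735 FPM in Triple_KO and 499.8 to 568 FPM in WT, with Lum and Dcn at or near 0. At 8 h the feeder sums were 935 to 1061 FPM in Ythdf1_KO, 468 to 507 FPM in Ythdf2_KO, 587 to 648 FPM in Ythdf3_KO, 823.6 to 1051 FPM in Triple_KO and 779.7 to 819 FPM in WT, and their part in the results below was not tested.

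Sequences around GGACT, the letters most often methylated in mRNA, are shown for 6 of the members whose 8 h change turned out low in several genotypes or different in Triple_KO, with the motif in capitals. Among the 80 members tested below, 29 (36.2%) had no GGACT in their GENCODE M21 transcript, against 848 (9.62%) of 8816 other genes tested. Members were also short, with a median transcript of 738.5 bases and 150.5 bases of 3′ UTR, against 2710.5 and 868 bases in the other genes, and the number of GGACT per kilobase was close, at 1.01 in members and 1.06 in the others. Only 1 member, Atp5pb, had an internal exon of 400 bases or more (1.25%), against 1551 of the other genes (17.6%). Ndufs7, Ndufs3, Uqcr10 and Ndufb9 had no GGACT, and Ndufa2 and Ndufb10, with 2 each, are not shown. Of 3 motifs in Cox7a2l and 4 in Uqcrq, the one nearest the stop codon is printed. The Uqcrfs1 motif and the Cox7a2l motif shown begin 7 and 14 bases after the stop codon, where m6A is commonly found, those of Uqcrq and Ndufb5 lie further into the 3′ UTR, and those of Atp5g2 and Uqcrh are in coding sequence. A match to these letters is a description and not a measured m6A site. The windows are on GRCm38, at chr13:30540707-30540736 (minus strand) for Uqcrfs1, chr17:83502572-83502601 (minus) for Cox7a2l, chr11:53428943-53428972 (minus) for Uqcrq, chr3:32751461-32751490 (plus) for Ndufb5, chr15:102665073-102665102 (minus) for Atp5g2 and chr4:116074949-116074978 (minus) for Uqcrh.
Uqcrfs1: ggttagacacgtGGACTcagggcctaggtt
Cox7a2l: cttgcctgtggaGGACTggttcactttgtg
Uqcrq: taaactacttatGGACTtccctttgtgact
Ndufb5: ggggcttatttgGGACTacttggaatttta
Atp5g2: gggcagggattgGGACTgtttttgggagtc
Uqcrh: gctcccgacatgGGACTagaggacgaacga

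Promoter sequences of RefSeq (GRCm38.p6, 250 bases before to 50 after the start) were at hand for 69 of the 86 members. The palindrome bound by NRF1, a regulator of respiratory chain genes, was searched on both strands as the exact letters in capitals below, and stood in 5 of them (7.25%), against 2.31% of 7232 tested genes and 1.07% of all genes with a promoter. CCGGAAGT, read by ETS factors such as GABP, was in 5 (7.25%), against 10.6% of tested genes, and the letters read by YY1, in capitals below for Ndufs7, were in 5 (7.25%), against 2.83%. A match is not a bound site. The NRF1 letters are shown for 3 members that differ in their course below and the YY1 letters for the member that fell most in several genotypes, at chr15:102671070-102671099 (minus) for Atp5g2, chr5:108434430-108434459 (minus) for Atp5k, chr5:115349101-115349130 (minus) for Cox6a1 and chr10:80249463-80249492 (plus) for Ndufs7.
Atp5g2: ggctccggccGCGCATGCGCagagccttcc
Atp5k: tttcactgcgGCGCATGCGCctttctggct
Cox6a1: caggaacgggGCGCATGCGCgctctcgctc
Ndufs7: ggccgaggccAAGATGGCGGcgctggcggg

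In WT cells at 0 h the highest members were Atp5b, the catalytic beta subunit of the ATP synthase, at 917 FPM, Cox4i1, the common isoform of a regulatory complex IV subunit, at 672 FPM, Atp5a1, the alpha subunit, at 607 FPM, Cox6a1 at 449 FPM and Cox8a at 416 FPM (means of 4 libraries of 3′ end reads, which scale with transcripts and not with length). The lowest were the tissue-restricted isoforms Cox7b2 at 0.483 FPM, Cox4i2 at 0.154 FPM and Cox8c at 0.147 FPM, and Cox6a2 and Cox8b at 0 in all 4 libraries. Cox6a2 and Cox8b are the heart and muscle forms of their subunits. These 5 genes and Ndufa11 stayed below the filter of 5 FPM in at least 2 replicate means and were not tested. Ndufa11, an accessory subunit of complex I, was above 0 in 12 of 50 libraries. The other 80 were tested, and 77 of them had at least 5 FPM in every replicate mean, the exceptions being Cox7a1, Ndufa4l2 and Ndufab1. Ndufs5 carried values identical to those of a pseudogene copy, so that its reads cannot be told apart from that copy.

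The share of a library in the 86 genes was close to the same in all genotypes at 0 h and parted at 8 h. In Triple_KO it was 1.23% ± 0.026, 1.47% ± 0.03 and 1.502% ± 0.046 at 0, 4 and 8 h (SD over 4, 2 and 4 libraries), and in WT 1.26% ± 0.032, 1.51% ± 0.046 and 1.32% ± 0.03. At 8 h the single knockouts had 1.27% ± 0.05 (Ythdf1_KO), 1.26% ± 0.027 (Ythdf2_KO) and 1.18% ± 0.015 (Ythdf3_KO). All 4 Triple_KO libraries lay above all 4 WT libraries at 8 h, a difference of 0.181 percentage points (exact two-sided permutation test, p = 0.0286, 0.0643 adjusted over 9 tests). All 4 Ythdf3_KO libraries lay below WT at 8 h, by -0.138 percentage points, with the same p-values. The smallest p that 4 against 4 libraries can give is 0.0286, and duplicates of 1 replicate are not independent.

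That order depended on what the share was taken of. Listed genes held 41.1% ± 1.48 of the reads in Triple_KO and 33.2% ± 0.266 in WT at 8 h, and 44.3% ± 0.72 and 43.3% ± 0.654 at 0 h. As a share of the reads in listed genes, the 86 genes were at 3.65% ± 0.059 in Triple_KO and 3.98% ± 0.07 in WT at 8 h, so that Triple_KO was lower by this measure in 4 of 4 libraries (exact permutation p = 0.0286, 0.0321 adjusted over 9). By the same measure the 8 h libraries exceeded the 0 h libraries in all 5 genotypes, by 0.879 percentage points in Triple_KO, 1.06 in WT and 0.865 to 1.19 in the single knockouts (adjusted p = 0.0321 in each). These tests treat duplicates of 1 replicate as independent, which they are not. Their smallest possible p, at 4 against 4 libraries, is 0.0286. The share of reads outside the listed genes moved with genotype and time, and its part in the results was not tested.

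**Figure D1:**
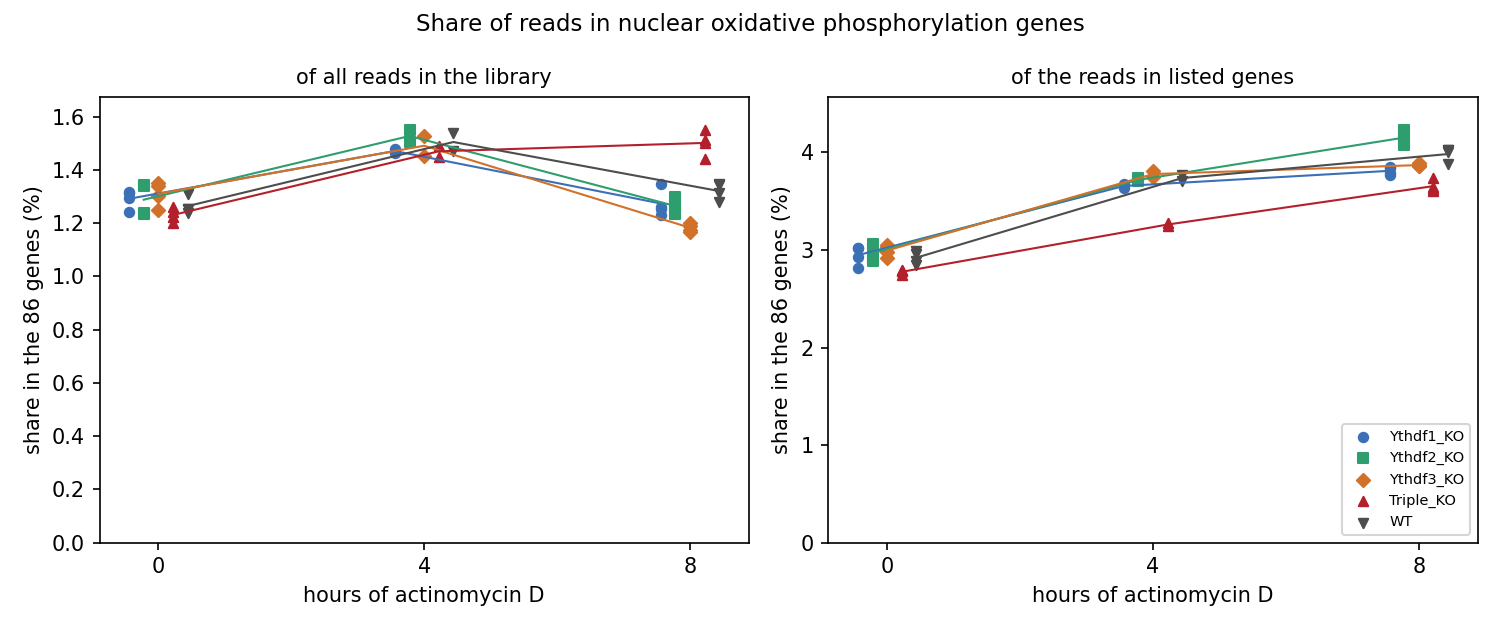
Share of reads in the 86 genes in each library (points, 4, 2 and 4 per genotype at 0, 4 and 8 h) with group means (lines), as a percentage of all reads (left) and of the reads in listed genes (right). At 8 h the Triple_KO mean is 1.502% against 1.32% in WT on the left, and 3.65% against 3.98% on the right.

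Under actinomycin D the members kept their level better than the typical gene. In WT the median member changed by 0.03 on the log2(FPM + 1) scale over 8 h and the median of all 9078 genes tested by -0.81, and all 80 members tested lay above that median. Of the 80, 15 rose (18.8%; 1.73% of all genes tested rose) and 13 fell (16.2%; 55.2% of all genes fell), by limma with Benjamini-Hochberg adjustment over all genes tested at 0.05. The values are relative to the library total, so that a gene that rises here is lost more slowly than the library as a whole, and with no new transcription it need not have gained molecules. TMM scaling moved the median of all genes to -0.22. With it 69 members were higher at 8 h in WT and 0 lower, beside 1383 and 2326 of all 9078 genes. Without replicate A, 6 rose and 8 fell, and without replicate B, 8 rose and 4 fell.

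Of the 15 members that rose in WT, 7 were complex IV subunits. Of 13 complex IV subunits tested, 7 rose and 1 fell, with a median of 0.21. Cox6c, an accessory subunit, had 100.2, 102, 108 and 98.6 FPM at 8 h, against 61.1, 79.4, 72.4 and 82.5 FPM at 0 h. The 8 h and 0 h libraries did not overlap, and the log2 change was 0.47 ± 0.13 (SE, adjusted p = 0.00129). Without replicate A its adjusted p was 0.0652.

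Cox6b1, the ubiquitous form of the subunit that bridges the complex IV dimer, had 273, 340, 367 and 355 FPM at 8 h, against 260, 269, 255 and 283 FPM at 0 h in WT. Its log2 change was 0.31 ± 0.07 (adjusted p = 0.000269), and 1 of the 8 h libraries lay among the 0 h ones. The testis-enriched form Cox6b2, with 73 to 104 FPM at 8 h and 79.5 to 92.5 FPM at 0 h, changed by 0.06 and did not pass. Cox7a2 (0.30), Cox7b (0.24), Cox6a1 (0.23), Cox8a (0.21) and Cox4i1 (0.21) rose as well. The check by gene with a replicate left out did not cover Cox8a and Cox4i1, which are not shown to hold. Without replicate A the adjusted p of Cox7a2, Cox7b and Cox6a1 was 0.119, 0.127 and 0.0543, and without replicate B that of Cox6b1 was 0.103. The complex IV gene that fell was Cox7a2l, also called Scaf1, which joins complexes III and IV into supercomplexes.

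Cox7a2l had 107, 116, 109 and 103 FPM at 8 h in WT, against 154, 137, 145 and 138 FPM at 0 h. Every 8 h library was below every 0 h library (log2 change -0.40 ± 0.10, adjusted p = 0.00109), although TMM scaling turned the sign to 0.27. Its close relatives Cox7a1 (0.02, not passing, 1.76 to 10.0 FPM at 8 h) and Cox7a2 did not fall. Its change in Triple_KO was 0.07, and that in Ythdf1_KO was -0.18, neither passing. It fell by 0.60 in Ythdf2_KO and by 0.75 in Ythdf3_KO, where TMM scaling gave 0.18 and -0.05, neither passing.

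Of the 13 falls in WT, 8 were of complex I. Of the 7 core subunits 4 fell and none rose, a share of falls near the 55.2% of all genes, and their median of -0.31 lay above the -0.81 of all genes (0 members fell under TMM scaling), while of 28 other complex I subunits tested 4 rose and 4 fell, with a median near 0 (0.0016). Ndufs7, which holds the last iron-sulphur cluster before ubiquinone, had 27.4, 19.1, 26.2 and 29.0 FPM at 8 h, against 43.8, 33.8, 40.6 and 44.7 FPM at 0 h. No 8 h library reached the lowest 0 h library, and the log2 change was -0.67 ± 0.19 (adjusted p = 0.00241, or 0.0598 without replicate A).

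Ndufs3, a core subunit of the arm that faces the matrix, had 24.0, 18.1, 18.6 and 22.001 FPM at 8 h and 33.3, 31.3, 34.7 and 30.1 FPM at 0 h in WT (log2 change -0.63 ± 0.22, adjusted p = 0.0132). These groups did not overlap either, but the adjusted p was 0.0896 without replicate A and 0.115 without replicate B. Ndufv2 (-0.36) and the NADH-binding Ndufv1 (-0.31) fell, and Ndufs1 (-0.30) and Ndufs8 (-0.09) did not pass. Without replicate B the adjusted p of Ndufv2 was 0.864 and that of Ndufv1 was 0.186 (0.163 without replicate A), and under TMM scaling Ndufs3, Ndufv1 and Ndufv2 stood at 0.02, 0.35 and 0.31. Accessory subunits that rose were Ndufa3 (0.37), Ndufc1 (0.34), Ndufa7 (0.27) and Ndufa13 (0.23), and those that fell were Ndufa8 (-0.51), Ndufb10 (-0.27), Ndufa6 (-0.26) and Ndufb5 (-0.26). Without replicate B Ndufb10 stood at -0.04 (adjusted p = 0.881) and Ndufa8 at -0.33 (0.319), and Ndufa3 failed too (0.078). Without replicate A Ndufc1, Ndufa7 and Ndufa13 failed (adjusted p = 0.12, 0.197 and 0.322). TMM scaling turned the signs of these 4 falls, to 0.14 for Ndufa8, 0.40 for Ndufb10 and 0.41 for both Ndufa6 and Ndufb5. The check by gene with a replicate left out did not cover Ndufa6 and Ndufb5.

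In complex III the Rieske iron-sulphur protein Uqcrfs1 and cytochrome c1, Cyc1, fell in WT, and Uqcr11 rose (0.18). The check by gene with a replicate left out did not cover Uqcr11. Uqcrfs1 had 60.5, 47.2, 59.9 and 66.0 FPM at 8 h, against 78.3, 84.5, 79.5 and 105 FPM at 0 h, with no overlap (log2 change -0.56 ± 0.13, adjusted p = 0.000174; 0.10 under TMM scaling). Cyc1 had 103, 119, 98.7 and 109 FPM at 8 h and 133, 146, 130 and 154 FPM at 0 h (log2 change -0.39 ± 0.10, adjusted p = 0.00128; 0.28 under TMM scaling and adjusted p = 0.0643 without replicate B). Both proteins carry a redox centre of the complex.

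None of the 4 complex II genes passed in WT. Sdha, the flavoprotein, changed by 0.25, the iron-sulphur subunit Sdhb by -0.11, and the membrane anchors Sdhc and Sdhd by 0.11 and -0.17. Of 17 ATP synthase genes, Atp5j2 (0.29; adjusted p = 0.0664 without replicate B) and Atp5b (0.16) rose, Atp5pb (-0.33; 0.154 without replicate B, and TMM scaling turned the sign to 0.34) and Atp5a1 (-0.19; 0.48 under TMM scaling) fell, and the median was 0.13. The check by gene with a replicate left out did not cover Atp5b and Atp5a1. The 3 genes for the identical c subunit of the rotor, Atp5g1, Atp5g2 and Atp5g3, changed by 0.05, -0.24 and 0.02, and none passed.

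**Figure D2:**
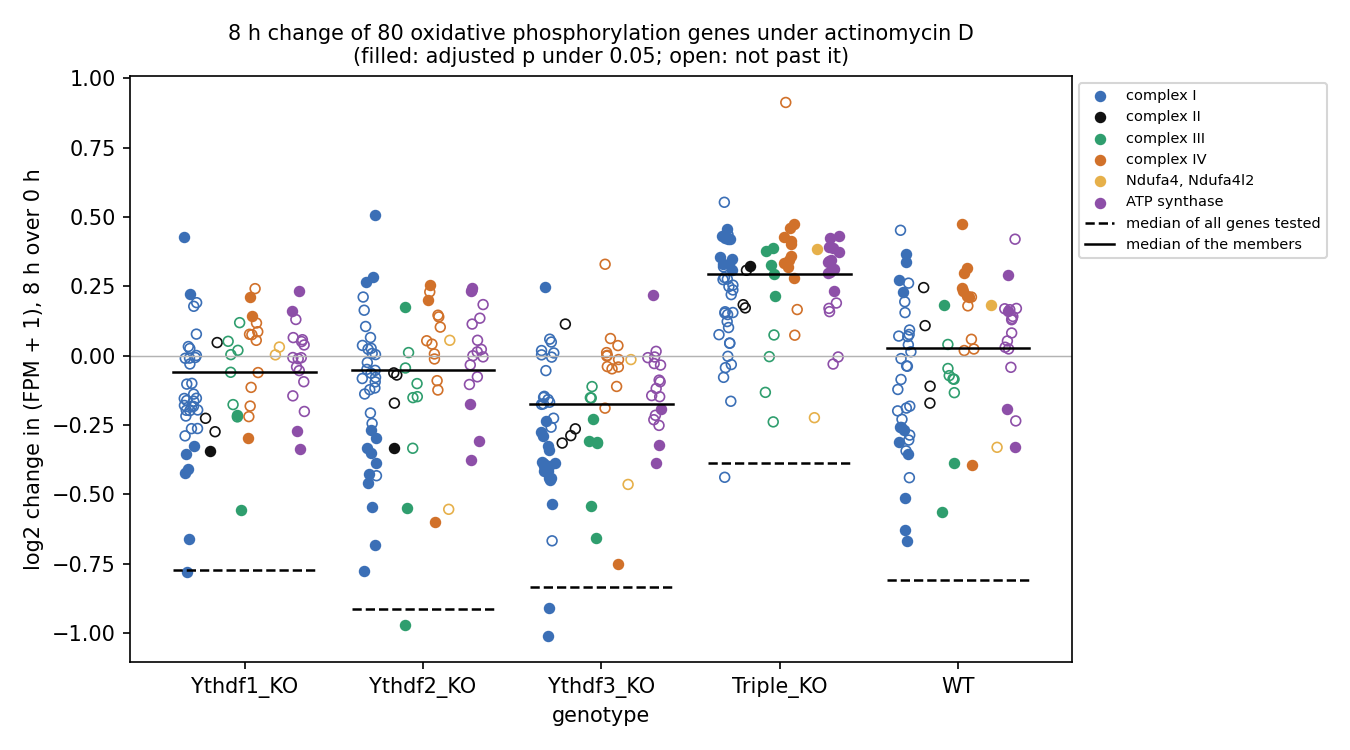
Log2 change from 0 h to 8 h of the 80 tested members in each genotype, by complex (colours), filled where the adjusted p was under 0.05. Solid lines mark the median member (0.30 in Triple_KO and 0.03 in WT) and dashed lines the median of all genes tested (-0.39 in Triple_KO and -0.81 in WT).

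In Ythdf1_KO 6 members rose over 8 h (7.50%; 1.38% of all genes) and 12 fell (15.0%; 54.5% of all genes), with a median of -0.06 against -0.77 over all genes. In Ythdf2_KO 8 rose (0.595% of all genes) and 17 fell (62.6%), with a median of -0.05 against -0.91. In Ythdf3_KO 2 rose (0.661%) and 27 fell (59.6%), with a median of -0.17 against -0.83. In each of these genotypes 78 or 79 of the 80 members lay above the median of all genes. Under TMM scaling 67, 70 and 63 members were higher at 8 h in Ythdf1_KO, Ythdf2_KO and Ythdf3_KO and 0 lower in each. Of all 9078 genes, 1246, 1285 and 1161 were higher under that scaling and 2173, 2414 and 2261 lower. Without replicate A or B, 0 and 7 members rose and 6 and 4 fell in Ythdf1_KO, 4 and 3 rose and 8 and 10 fell in Ythdf2_KO, and 0 and 1 rose and 18 and 14 fell in Ythdf3_KO.

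Ndufs7 was at or near the bottom in each single knockout. It had 17.6, 23.5, 21.7 and 22.4 FPM at 8 h in Ythdf3_KO, against 37.2, 48.6, 45.2 and 44.3 FPM at 0 h (log2 change -1.01 ± 0.19, adjusted p = 9.02e-06). In Ythdf2_KO Uqcrfs1 had 51.7, 43.7, 54.6 and 54.4 FPM at 8 h and 96.2, 91.6, 101 and 116 FPM at 0 h (log2 change -0.97 ± 0.13, adjusted p = 2.36e-09). In neither case did an 8 h library reach a 0 h library, and both losses lay below the median of all genes in that genotype. Under TMM scaling these changes were -0.32 and -0.19 and did not pass. In Ythdf1_KO Ndufs3 fell by 0.78, Ndufs7 by 0.66 and Uqcrfs1 by 0.56, but without replicate A the adjusted p of Ndufs3 was 0.0608 and that of Ndufs7 was 0.287.

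Of complex II, Sdha fell in Ythdf1_KO (-0.34) and Sdhb in Ythdf2_KO (-0.33), and in Ythdf3_KO Sdha stood at -0.26, not passing. Both falls were smaller than those of the median gene, -0.77 in Ythdf1_KO and -0.91 in Ythdf2_KO. TMM scaling turned both signs, to 0.28 for Sdha in Ythdf1_KO, not passing, and 0.44 for Sdhb in Ythdf2_KO (limma, adjusted p = 0.014). The check by gene with a replicate left out did not cover them. Differences between single knockouts were not tested. Of the 7 complex I core genes, 2, 5 and 5 fell in Ythdf1_KO, Ythdf2_KO and Ythdf3_KO, with medians of -0.26, -0.42 and -0.44, and none rose, beside falls of 54.5%, 62.6% and 59.6% of all genes. Under TMM scaling 0 were lower. The rises in single knockouts were Ndufa3 (0.43 in Ythdf1_KO and 0.28 in Ythdf2_KO), Cox6b1 (0.21 and 0.26), Atp5k (0.23, 0.24 and, in Ythdf3_KO, 0.22), Ndufa13 and Atp5e in Ythdf1_KO (0.22 and 0.16), Ndufa1 and Ndufa7 in Ythdf2_KO (0.51 and 0.27), and Ndufc1 in Ythdf3_KO (0.25). Cox6a1 rose in Ythdf1_KO (0.14) and Ythdf2_KO (0.20), and Uqcr11 (0.18) and Atp5e (0.23) rose in Ythdf2_KO. The check by gene with a replicate left out did not cover these rises of Cox6a1, Uqcr11 and Atp5e, which are not shown to hold. In Ythdf1_KO Ndufa3, Cox6b1, Atp5k, Ndufa13 and Atp5e failed without replicate A (adjusted p = 0.0502, 0.497, 0.418, 0.235 and 0.361). In Ythdf2_KO Ndufa1, Atp5k and Ndufa3 failed without either replicate (0.0512 to 0.187), Cox6b1 without A (0.102) and Ndufa7 without B (0.0872). In Ythdf3_KO Atp5k (0.0797 and 0.39) and Ndufc1 (0.36 and 0.104) failed without A and without B.

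In Triple_KO 39 of 80 members rose over 8 h (48.8%; 3.45% of all genes) and 0 fell (25.8% of all genes fell; 1 member at an unadjusted p under 0.05, and 2 by edgeR's quasi-likelihood test). The median member changed by 0.30 and the median gene by -0.39. The rises came from every complex: 12 of 17 ATP synthase genes, 10 of 13 of complex IV, 5 of 9 of complex III, 1 of 4 of complex II (Sdhc), 10 of 28 accessory genes of complex I, and Ndufa4, but 0 of 7 complex I core genes, whose median was 0.00. Without replicate A the median member changed by 0.28 and without replicate B by 0.31. Fewer than these 39 members passed in either of those runs, so the medians do not show that each rise held. Under TMM scaling 66 members were higher and 0 lower, beside 1075 and 1223 of all 9078 genes.

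Cox6b1 had the largest passing rise, with 393, 427, 488 and 410 FPM at 8 h, against 310, 311, 319 and 291 FPM at 0 h in Triple_KO (log2 change 0.48 ± 0.07, adjusted p = 6.49e-07). The groups did not overlap. Cox6c (0.46), Ndufa3 (0.46), Ndufa7 (0.43) and Atp5k (0.43) followed, and without replicate A the adjusted p of Cox6c was 0.293, of Ndufa7 0.106 and of Atp5k 0.213. The c subunit genes Atp5g1, Atp5g2 and Atp5g3 rose by 0.35, 0.39 and 0.23. Of the 13 members that fell in WT, Ndufb5 rose in Triple_KO (0.42) and the other 12 did not pass, among them Ndufs7 at -0.44, Uqcrfs1 at -0.24, Cyc1 at -0.13, Ndufs3 at -0.04 and Ndufb10 at 0.27.

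Across the 80 members the Pearson correlation of the 8 h changes was 0.62 between Triple_KO and WT and 0.72 to 0.82 between each single knockout and WT, as a description in which all points share their libraries. Over all 9078 genes it was 0.77 between Triple_KO and WT. Among members, longer coding sequences went with lower 8 h changes (Spearman rho -0.43 in Triple_KO and -0.47 in WT, n = 80). For the number of GGACT rho was -0.02 and -0.09, and -0.18 to 0.04 in the single knockouts. Over all genes with these features rho was -0.28 in Triple_KO and -0.19 in WT for coding length. For GGACT it was -0.21 and -0.18 over all genes. The 29 members with no GGACT had a median change of 0.25 in Triple_KO and 0.03 in WT, and the 51 with at least 1 had 0.31 and 0.02.

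The 4 h libraries, 2 per genotype, split the course into an earlier and a later part. The median member changed by 0.25 from 0 h to 4 h in both Triple_KO and WT, and by 0.16 to 0.24 in the single knockouts. From 4 h to 8 h it changed by 0.02 in Triple_KO and -0.21 in WT, and by -0.24 to -0.36 in the single knockouts. In Triple_KO 36 of 80 members were lower at 8 h than at 4 h (77% of all genes), against 74 in WT (81.7%). The median of all genes changed by -0.11 in Triple_KO and -0.37 in WT from 0 h to 4 h. From 4 h to 8 h it changed by -0.25 and -0.38. The all-gene medians thus differed between these genotypes in both parts, and none of these values was tested.

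The difference in 8 h change between Triple_KO and WT passed for 9 members, all higher in Triple_KO (11.2%; 7.22% of all genes tested), and for 0 in the other direction (0.022% of all genes; 0 members at an unadjusted p under 0.05 and 0 by edgeR). The median member differed by 0.23 and the median gene by 0.37, and 19 of 80 members lay above the median gene. The members' share is near that of all genes. Under TMM scaling 0 members passed in either direction, beside 102 higher and 43 lower of 9078 genes. With that scaling the median member differed by -0.10 and the median gene by 0.08. By edgeR 16 were higher (1281 of 9078 genes). Without WT replicate A 6 passed, without WT replicate B 3, without Triple_KO replicate A 3 and without Triple_KO replicate B 2.

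Of the 9, complexes I and III held 7, and these complexes held 35 and 9 of the 80 members tested. Ndufb5, an accessory membrane-arm subunit, had 141, 159, 161 and 142 FPM at 8 h and 115, 109, 107 and 117 FPM at 0 h in Triple_KO, while in WT it had 98.2, 107, 129 and 109 FPM at 8 h and 142, 142, 130 and 116 FPM at 0 h. The 8 h libraries were all above the 0 h ones in Triple_KO, and 3 of 4 lay below them in WT. The difference was 0.68 ± 0.15 (adjusted p = 0.0011, or 0.111 without WT replicate A). Its motif window shown above lies in the 3′ UTR.

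Atp5g2 had 85.0, 90.2, 87.4 and 82.4 FPM at 8 h in Triple_KO and 69.3, 59.8, 65.9 and 67.4 FPM at 0 h, against 57.1, 43.1, 57.4 and 54.6 FPM at 8 h and 65.4, 57.5, 60.0 and 66.4 FPM at 0 h in WT. The 8 h libraries of Triple_KO were all above every other library of these groups, and the difference was 0.63 ± 0.19 (adjusted p = 0.0285). It failed whichever replicate of either genotype was left out (adjusted p = 0.0745 to 0.25). The other c subunit genes differed by 0.29 (Atp5g1) and 0.21 (Atp5g3) and did not pass.

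Uqcr10, a small complex III subunit with no GGACT, had 617, 592, 612 and 553 FPM at 8 h and 460, 470, 439 and 442 FPM at 0 h in Triple_KO, against 359, 330, 348 and 334 FPM at 8 h and 358, 355, 368 and 371 FPM at 0 h in WT. It was the most clearly separated of the 9, with a difference of 0.47 ± 0.09 (adjusted p = 0.000163), and it passed without each replicate in turn. Uqcrh (0.46), the hinge protein of complex III, and Uqcrq (0.42) passed as well. So did Ndufa2 (0.55), Ndufb10 (0.54) and Ndufb9 (0.46) of complex I and Cox7a2l (0.47). Of these, Cox7a2l and Ndufb9 failed whichever replicate of WT or Triple_KO was left out, with adjusted p of 0.128 to 0.234 and 0.122 to 0.355, and Uqcrh failed without WT replicate A (0.064) and without Triple_KO replicate B (0.0789). Ndufa2, Ndufb10 and Uqcrq failed without WT replicate B (0.0802, 0.478 and 0.103) and without either Triple_KO replicate (0.0698 to 0.405 over the 3 genes).

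Core complex I genes differed by a median of 0.31 between Triple_KO and WT, and none passed: Ndufs3 stood at 0.59, Ndufv2 at 0.51, Ndufs8 at 0.41, Ndufv1 at 0.31, and Ndufs1 and Ndufs7 at 0.23 each. In complex II the differences were -0.06 for Sdha, 0.42 for Sdhb, 0.21 for Sdhc and 0.34 for Sdhd. Uqcrfs1 differed by 0.33 and Cyc1 by 0.25. The differences of the isoform pairs were 0.16 for Cox6b1 and 0.34 for Cox6b2, 0.02 for Cox7a2 and 0.89 for Cox7a1, and 0.20 for Ndufa4 and 0.11 for Ndufa4l2, and none of these passed.

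**Figure D3:**
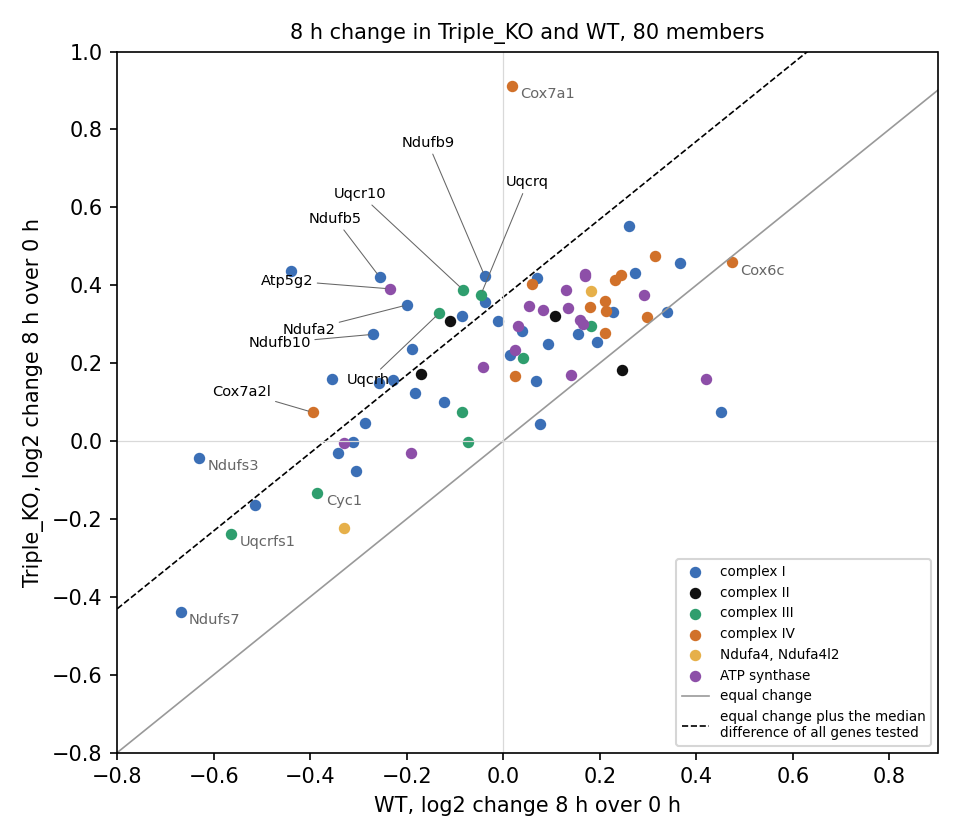
Log2 change over 8 h in Triple_KO (y axis) against WT (x axis) for the 80 tested members, by complex. The grey line marks equal change and the dashed line equal change plus 0.37, the median difference of all genes tested, and black names mark the 9 members that passed, which sit on or above the dashed line.

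In the single knockouts no member's 8 h change differed from that in WT after adjustment. In Ythdf1_KO 0 members were higher (0.0441% of all genes) and 0 lower (0.0%), with 1 higher and 4 lower at an unadjusted p under 0.05 and 0 by edgeR. In Ythdf2_KO it was 0 higher (0.0%) and 0 lower (0.176%), with 0 and 7 unadjusted and 0 by edgeR. In Ythdf3_KO it was 0 higher (0.0%) and 0 lower (0.33%). There 24 were lower at an unadjusted p under 0.05 (4.90% of all genes) and 5 by edgeR (72 of 9078 genes). The median member differed by -0.21 and the median gene by -0.08. These comparisons share the WT libraries. The 8 h change of Sdha differed from WT by -0.06 in Triple_KO, and by -0.59, -0.42 and -0.51 in the Ythdf1, Ythdf2 and Ythdf3 knockouts, none passing.

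**Figure D4:**
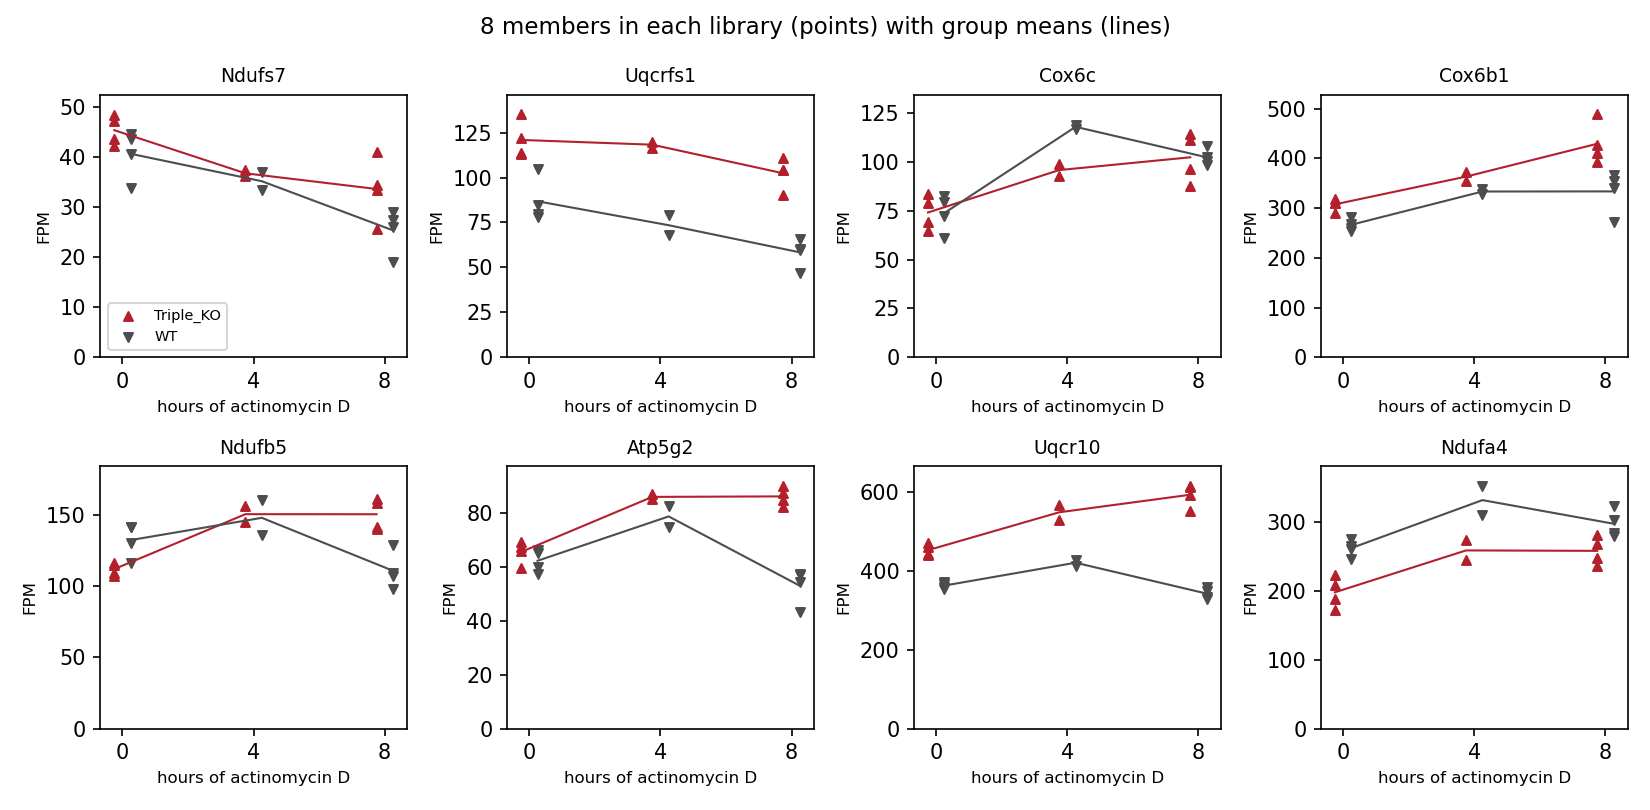
FPM of 8 members in each Triple_KO (red) and WT (grey) library at 0, 4 and 8 h, with group means as lines. Uqcr10 is at 553 to 617 FPM in Triple_KO and 330 to 359 FPM in WT at 8 h, and Ndufs7 at 25.6 to 41.1 and 19.1 to 29.0 FPM.

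Before the drug, at 0 h, the single knockouts differed from WT in few members, and Triple_KO in more. In Triple_KO 8 members were higher (10.0%; 14.3% of 8697 genes tested) and 10 lower (12.5%; 7.65% of all genes), with a median of -0.05 against 0.07 over all genes. Shares of this size lie near those of all genes. In a fit over all 3 times 3 were higher and 3 lower, and under TMM scaling 16 were lower (804 of all 8697 genes). Without Triple_KO replicate B 5 were higher, and 5 were lower without WT replicate B or without either Triple_KO replicate.

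The higher members in Triple_KO were led by Uqcrfs1, with 113, 135, 122 and 114 FPM in Triple_KO and 78.3, 84.5, 79.5 and 105 FPM in WT. The libraries did not overlap (log2 difference 0.48 ± 0.09, adjusted p = 1.03e-05). Uqcr10, described above, was higher by 0.32 ± 0.05 (adjusted p = 3.56e-08), with 439 to 470 FPM in Triple_KO and 355 to 371 FPM in WT. Ndufa10 (0.43), Ndufa2 (0.40), Cox5a (0.32), Ndufs4 (0.31), Ndufb4 (0.31) and Cox6b1 (0.21) were also higher. Of these, Ndufa10 failed without WT replicate B (log2 difference 0.34) and without Triple_KO replicate A (0.44) or B (0.42). The check by gene with a replicate left out did not cover Ndufs4, Ndufb4 and Cox6b1, which are not shown to hold. Under TMM scaling Ndufb4 stood at 0.26 and did not pass (limma, adjusted p = 0.0515). Uqcrfs1, Ndufa2 and Uqcr10 passed in every alternative run.

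The lower members in Triple_KO were led by Ndufa4, now counted with complex IV, with 188, 209, 172 and 223 FPM in Triple_KO and 260, 265, 247 and 275 FPM in WT. No Triple_KO library reached WT, and the log2 difference was -0.41 ± 0.06 (adjusted p = 1.19e-08). Its low relative Ndufa4l2 stood at -0.52, with 3.88 to 10.8 FPM in Triple_KO and 7.61 to 9.87 FPM in WT, and did not pass. Cox4i1 was lower at 558, 582, 567 and 611 FPM in Triple_KO, against 652, 684, 674 and 679 FPM in WT (-0.21 ± 0.04, adjusted p = 9.67e-06). Of the ATP synthase, Atp5e (-0.27), Atp5d (-0.20), Atp5g3 (-0.17) and Atp5a1 (-0.13) were lower and none of 17 was higher, with a median of -0.12. Ndufb3 (-0.33), Ndufb5 (-0.24), Uqcrh (-0.20) and Ndufa7 (-0.19) completed the 10. Ndufb3 failed without each replicate in turn, at log2 differences of -0.37 to -0.29. Ndufb5 failed without WT replicate A (-0.13) and without Triple_KO replicate A (-0.24) or B (-0.23). The check by gene with a replicate left out did not cover Atp5d, Atp5g3, Atp5a1, Uqcrh and Ndufa7, which are not shown to hold. Ndufb5 and Uqcrh, lower at 0 h, are 2 of the 9 members whose 8 h change was higher in Triple_KO, and these comparisons share the 0 h libraries.

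The single knockouts gave 2 to 5 higher members at 0 h. In Ythdf1_KO 2 were higher (1.72% of all genes tested) and 1 lower (0.897%), in Ythdf2_KO 5 (3.98%) and 1 (4.22%), and in Ythdf3_KO 5 (2.47%) and 0 (1.99%; 1 at an unadjusted p under 0.05 and 0 by edgeR). Ndufb4 was higher in Ythdf2_KO (0.37) and Ythdf3_KO (0.38), as were Uqcr10 (0.21 and 0.20) and Cox6b1 (0.18 and 0.19), and Ndufs4, a subunit needed for complex I assembly, in Ythdf1_KO (0.47) and Ythdf2_KO (0.36). These 4 genes were also higher in Triple_KO, and all the comparisons share the WT libraries. In the fit over all 3 times none of the members passed in a single knockout. Without WT replicate A, 1 member was higher in Ythdf1_KO, 1 in Ythdf2_KO and 2 in Ythdf3_KO. Without replicate B of the knockout the counts were 1, 2 and 2, and without its replicate A they were 3, 2 and 3. Under TMM scaling 12 were higher in Ythdf2_KO and 11 in Ythdf3_KO (556 and 396 of all 8697 genes).

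Ndufs4 had 104, 110, 110 and 118 FPM in Ythdf1_KO, 88.0, 109, 100.2 and 114 FPM in Ythdf2_KO and 62.3, 75.2, 80.1 and 106 FPM in WT. WT was the more variable group, and 1 WT library lay among the knockout libraries. Without WT replicate A the adjusted p was 0.271 in Ythdf1_KO and 0.533 in Ythdf2_KO, and without Ythdf2_KO replicate B it was 0.189 there. Ndufb4 in Ythdf2_KO and Ythdf3_KO failed without WT replicate A too (0.137 and 0.156), in Ythdf2_KO without its own replicate A (0.156) and in Ythdf3_KO without either of its replicates (0.0984 and 0.0884). Cox6b1 failed in Ythdf2_KO whichever replicate was left out (0.0687 to 0.201), and in Ythdf3_KO without either WT replicate (0.163 and 0.0725) or without Ythdf3_KO replicate B (0.584). Uqcr10 in Ythdf3_KO failed when replicate A of WT (0.0987) or of the knockout (0.141) was left out.

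In Ythdf1_KO all 6 tested members on chromosome 13 were above WT, by 0.19 to 0.47: Ndufs4, Sdha (0.25), Uqcrb, Uqcrfs1 (0.22), Ndufs6 and Cox7c. Uqcrb, with 258, 270, 289 and 289 FPM in Ythdf1_KO and 236, 235, 222 and 243 FPM in WT, passed (0.24 ± 0.06, adjusted p = 0.0108, or 0.301 without Ythdf1_KO replicate B and 0.0673 without WT replicate B). All 292 tested genes of chromosome 13 had a median 0.17 above that of all genes in this comparison, and the other 74 members had a median of 0.02. The part of this chromosome-wide shift in the result was not tested. In the other 3 knockouts no chromosome's median differed from that of all genes by more than 0.1.

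Cox6b2 was the lower gene of both Ythdf1_KO and Ythdf2_KO. It had 61.1, 73.0, 71.6 and 63.0 FPM in Ythdf1_KO, 64.1, 56.9, 69.6 and 64.9 FPM in Ythdf2_KO and 92.5, 88.7, 79.5 and 87.4 FPM in WT. No library of these knockouts reached the lowest WT library (log2 difference -0.37 ± 0.11, adjusted p = 0.0302, and -0.44 ± 0.11, adjusted p = 0.00182). The gene stood at -0.28 in Ythdf3_KO and -0.24 in Triple_KO, not passing in either, and without WT replicate A the adjusted p was 0.246 in Ythdf1_KO and 0.0564 in Ythdf2_KO. It also failed without either Ythdf1_KO replicate (0.124 and 0.147) and without Ythdf2_KO replicate A (0.102). Its partner Cox6b1 went the other way, at 0.13 in Ythdf1_KO (not passing) and 0.18 in Ythdf2_KO. Uqcrc2, a core protein of complex III, was higher in Ythdf3_KO (0.48, with 56.1 to 67.8 FPM in Ythdf3_KO and 37.1 to 52.4 FPM in WT), together with Uqcrq (0.29; adjusted p = 0.0686 without Ythdf3_KO replicate B), and Ndufc1 was higher in Ythdf2_KO (0.29). Uqcrc2 failed without WT replicate B (0.113) and without Ythdf3_KO replicate A (0.241), and Ndufc1 failed whichever replicate was left out (0.0854 to 0.355). Complex II and the complex I core had no passing member at 0 h in any knockout.

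**Figure D5:**
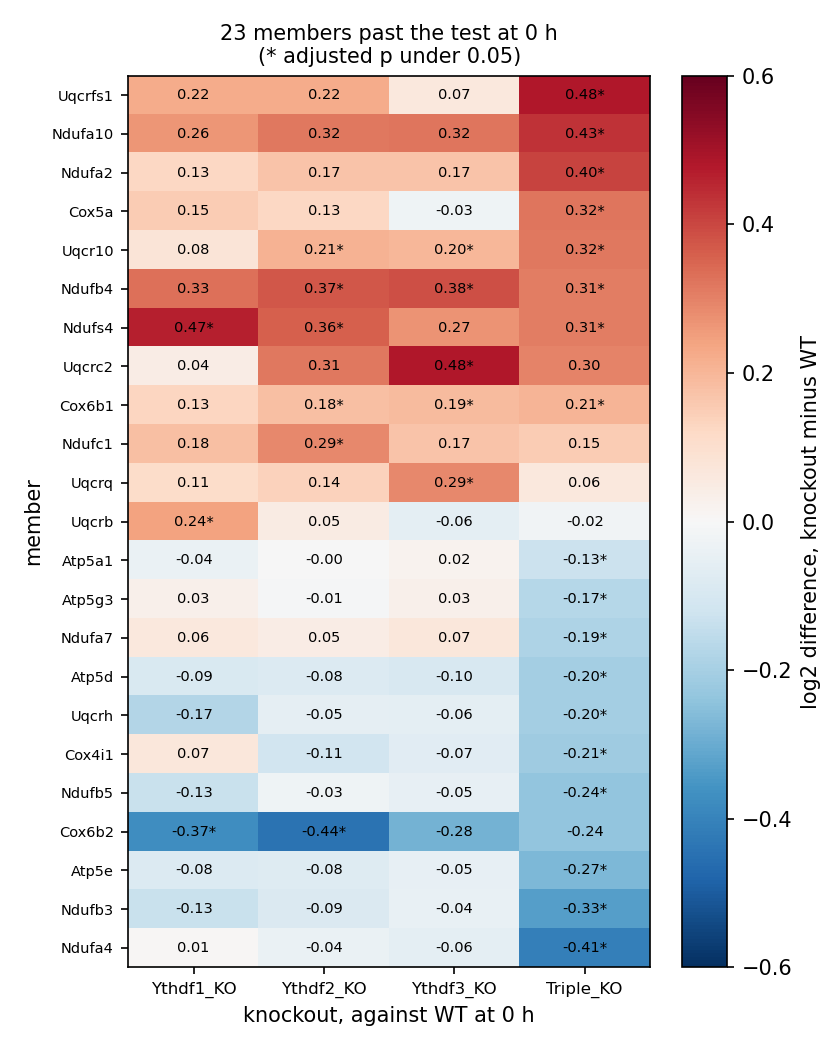
Log2 difference at 0 h from WT for the 23 members that passed in at least 1 knockout (rows) in each knockout (columns), with asterisks at an adjusted p under 0.05. Ndufa4 is at -0.41 in Triple_KO and Uqcrfs1 at 0.48.

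Genes that build or feed the respiratory chain are given beside the 55.2% of all genes that fell over 8 h in WT, with a median of -0.81. Of 42 tested assembly factors 24 fell, a share near that of all genes, and 0 rose, with a median of -0.93, led by Tmem186 (-2.45), Coa6 (-2.38), Coa4 (-2.10) and Ndufaf6 (-1.82). Of 22 genes of mitochondrial gene expression and biogenesis 16 fell and 0 rose, with a median of -1.21, led by Gabpb1 (-2.98), which encodes a subunit of GABP, and the coactivator Pprc1 (-2.87), then Mterf1a (-2.42) and Mterf3 (-2.23). Of 22 genes of the citric acid cycle and pyruvate entry 5 fell, with a median of -0.27 and 20 above the median of all genes, led by Pdhx (-1.87) and Pdha1 (-0.83) of pyruvate dehydrogenase. Of 21 genes of electron carriers and adenine nucleotide exchange 10 fell, with a median of -0.50, led by Coq10b (-1.95) and Coq9 (-1.34) of ubiquinone biology. In Triple_KO, 2 assembly factors rose and 2 fell over 8 h (Cox17 at 0.53, Uqcc2 at 0.32, Tmem70 at -1.41 and Cox20 at -0.99), with a median of -0.10, and 7 biogenesis genes fell, with a median of -0.70, including Nrf1 (-2.05), whose product binds the letters shown above.

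The difference between Triple_KO and WT in 8 h change passed for 5 of 42 assembly factors, all higher (7.22% of all genes were higher), with a median of 0.62 against 0.37 over all genes: Bcs1l (1.79), Coa6 (1.73), Uqcc3 (1.30) and Coa3 (0.74) led. Etfb (0.59) and the phosphate carrier Slc25a3 (0.36) passed among the carriers, and 0 genes passed in the biogenesis and citric acid cycle lists. At 0 h in Triple_KO, 11 of 42 assembly factors were higher and 0 lower (14.3% and 7.65% of all genes; median 0.25 against 0.07), with Tmem70 (1.30), Nubpl (1.10), Coa3 (0.87) and Coa4 (0.81) at the top. The adenine nucleotide carriers Slc25a4 (0.98) and Slc25a5 (0.37) and the phosphate carrier Slc25a3 (0.29) were higher as well, beside Coq6 (0.81), while 1 gene of that list was lower. These lists are described by their counts and medians alone.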

How the data were processed

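The authors deposited 3′ end RNA-seq values in FPM (RPM), reads per 1000000 reads of the library, per RefSeq transcript and with no length correction. CASAVA 1.8.2 and Bowtie2 with the build mm10 are named, per the submitters' processing notes, and the counting tool is not given in the sources used here. Steps between low values gave whole numbers of reads for 100% of values (tolerance 0.1 read). Of 22338 rows, 21729 were named from RefSeq GRCm38.p6 and 120 from GENCODE M21, and 489 had no name. Identical rows (2169) were dropped and distinct rows of a gene summed.

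Duplicate libraries were averaged on log2(FPM + 1), which left replicates A and B as the units (n = 2); whether these were separate cultures is not given, so p-values measure the spread between them. Genes with 5 FPM in 2 replicate means were tested with limma 3.58.1 (trend, R 4.3.3): 8697 genes in the 0 h fit and 9078 in the fit over times. Benjamini-Hochberg adjustment ran over all genes tested, at 0.05. The alternatives were a pseudocount of 0.5, no filter, TMM scaling, a replicate block, edgeR 4.0.16 on recovered reads, the highest transcript alone, a fit on all times and leaving out each replicate; shares of the library were also taken over listed genes and over duplicate means. The fit was also run on simulated data with independent libraries, unlike the duplicates here, and no result above rests on that run.

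The members and lists were chosen with earlier results of these data known. Named members were the 10 largest rises and falls past the threshold whose A and B changed alike, in WT over 8 h and in the Triple_KO difference, and 5 in other comparisons. Complex II, the complex I core, Cyc1, Uqcrfs1, the isoform families and the 5 highest and 5 lowest levels in WT were added, as were up to 4 genes of other lists. The values of 1 member are not reported here. Any other member given was named after its values were seen.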

Additional observations from a re-analysis of the deposited data

Results flagged for a closer look

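In 230 groups of 4 libraries of the members shown, 7 had 1 library far from the other 3, and chance flags about 1 in 20 groups. These libraries were Ndufb10 at 132 FPM at 0 h and at 160 FPM at 8 h in Triple_KO, Cox4i1 at 683 FPM in Ythdf1_KO and 631 FPM in Ythdf3_KO at 8 h, Ndufb5 at 146 FPM in Ythdf2_KO at 0 h, Ndufs3 at 15.5 FPM in Ythdf2_KO at 8 h and Ndufs4 at 109 FPM in Ythdf3_KO at 8 h. Both outlying Ndufb10 libraries belong to Triple_KO, where the gene is among those whose 8 h change differed from WT.

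That difference, tested as an interaction in limma, passed for 9 members: Ndufb5 (0.68), Atp5g2 (0.63), Ndufa2 (0.55), Ndufb10 (0.54), Uqcr10 (0.47), Cox7a2l (0.47), Ndufb9 (0.46), Uqcrh (0.46) and Uqcrq (0.42). All 9 are higher in Triple_KO than in WT on the log2 scale, and none passes under TMM scaling.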

How the results depend on the processing

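A pseudocount of 0.5 and using the highest transcript alone left every count of members within 1.5 times. Replicate letters share only a letter (correlations of -0.041 to 0.038 between groups): with a replicate block 3 members were higher in Ythdf1_KO at 0 h and 28 fell over 8 h in Ythdf3_KO, and no call of the 85 named results changed. Of these, 26 no longer passed with no filter, and Ndufb10 in WT failed with a pseudocount of 0.5 (adjusted p = 0.0513). The causes were not tested.

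With no filter, at 0 h 5 members were higher and 6 lower in Triple_KO, 0 and 0 in Ythdf1_KO, 0 and 0 in Ythdf2_KO and 0 higher in Ythdf3_KO, and over 8 h 1 rose in Ythdf3_KO and 7 fell in WT. In the fit on all times the 0 h counts were 3 and 3 in Triple_KO, 0 and 0 in Ythdf1_KO, 0 and 0 in Ythdf2_KO and 0 higher in Ythdf3_KO. By edgeR 14 rose over 8 h in Ythdf2_KO and 2 fell in Triple_KO (66 and 3556 of 9078 genes). Of the differences from WT, 5 were lower in Ythdf3_KO and 16 higher in Triple_KO (72 and 1281 of all genes).

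TMM scaling gave 12 higher in Ythdf2_KO, 11 higher in Ythdf3_KO and 16 lower in Triple_KO at 0 h. Of all 8697 genes these were 556, 396 and 804. Over 8 h it gave 66 members that rose in Triple_KO, 67 with Ythdf1 knocked out, 70 with Ythdf2, 63 with Ythdf3 and 69 in WT. Of all 9078 genes 1075, 1246, 1285, 1161 and 1383 rose, in the same order. TMM scaling gave 0 members that fell in each, and 0 differences for Triple_KO. It reversed the 8 h falls of Ndufs3 (0.02), Uqcrfs1 (0.10), Ndufa8 (0.14), Cox7a2l (0.27), Cyc1 (0.28), Ndufv2 (0.31), Atp5pb (0.34), Ndufv1 (0.35) and Ndufb10 (0.40) in WT. It also reversed Uqcrfs1 (0.07), Ndufc2 (0.19) and Ndufa6 (0.22) in Ythdf1_KO. In Ythdf2_KO it reversed Ndufa8 (0.08), Cox7a2l (0.18) and Cyc1 (0.23), and in Ythdf3_KO Uqcrfs1 (0.04) and Uqcrc2 (0.16). These lists cover the named results alone. Other falls reversed as well, such as Ndufa6 (0.41), Ndufb5 (0.41) and Atp5a1 (0.48) in WT. Under this scaling the only member with a negative 8 h change in WT was Ndufs7. In Ythdf1_KO these were Ndufs3 and Ndufs7, and in Ythdf2_KO Ndufs7 and Uqcrfs1. In Ythdf3_KO they were Cox7a2l, Ndufab1, Ndufs3 and Ndufs7.

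As a share of listed genes, the 8 h minus 0 h difference was 0.879 percentage points in Triple_KO. It was 0.865 for the Ythdf1 knockout, 1.19 for Ythdf2, 0.876 for Ythdf3 and 1.06 in WT, and the difference from WT at 8 h was -0.329 in Triple_KO, -0.172 in Ythdf1_KO and 0.169 in Ythdf2_KO.

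Leaving out 1 replicate gave, at 0 h, 5 to 7 higher and 5 to 7 lower in Triple_KO, 1 to 3 and 0 to 1 in Ythdf1_KO, 1 to 4 and 0 to 1 in Ythdf2_KO and 2 to 5 higher in Ythdf3_KO. Over 8 h it gave 16 to 22 rises in Triple_KO, 0 to 7 rises and 4 to 6 falls in Ythdf1_KO, 3 to 4 and 8 to 10 in Ythdf2_KO, 0 to 1 and 14 to 18 in Ythdf3_KO and 6 to 8 and 4 to 8 in WT. It left 2 to 6 differences for Triple_KO. For the share of the library, the 8 h minus 0 h difference in Ythdf1_KO ran from -0.0612 to 0.0257, and its difference from WT at 8 h from -0.0867 to -0.00654. The lone replicate is assumed to vary like the other groups. Checks by gene in these runs covered only the 85 named results, so a member outside them is not shown to hold.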
